A study of Mus musculus with 62 samples.

Results

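Striatal RNA from mice given 6 mg/kg of a mixture of polychlorinated biphenyls (PCBs) was compared with striatal RNA from mice given 0.1 mg/kg. The comparison took every striatal library labelled with those doses. There were 6 libraries of the high dose and 5 of the low dose, 11 of the 62 in the series. All were female C57BL/6 mice, an inbred laboratory strain, given the mixture named MARBLES by mouth, and each library was made from punches of dissected tissue. No untreated library entered the test of these doses. The 4 vehicle (0 mg/kg) and 6 libraries at 1 mg/kg from the same tissue are given as values, and enter a fit only where all 4 doses are named. Age, the number of doses and the time from the last dose to dissection are not given in the sources used here. Libraries are called by the number in their titles, read here as that of an animal, which the labels do not state. Nothing in the labels says whether the RNA extractions or sequencing runs were separate for each animal, so p-values measure the spread between these libraries.

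The striatum is the main input station of the basal ganglia, and most of its neurons are inhibitory projection neurons that carry dopamine D1 or D2 receptors. When such neurons are excited, calcium entry and the mitogen-activated protein kinase (MAPK) cascade switch on immediate early genes within minutes, and the products include both transcription factors (Egr, Fos and Nr4a families) and phosphatases that shut the cascade down again (Dusp family). A different set of fast genes encodes chaperones. Heat shock factor drives those of the cytosol, and the unfolded protein response drives those of the endoplasmic reticulum (ER). PCBs with ortho chlorines are known to sensitise ryanodine receptors, the calcium release channels of the ER, and coplanar PCBs bind the aryl hydrocarbon receptor.

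Markers of the striatum were present in the punches. Ppp1r1b, the protein phosphatase inhibitor DARPP-32 of projection neurons, ranged from 1083 to 2609 CPM (counts relative to the library total, scaled between libraries by edgeR's TMM method) over the 11 libraries, against 589 to 1040 CPM in the 11 prefrontal cortex libraries of the same doses, a table normalised separately. Adora2a, the adenosine receptor of D2 neurons, ranged from 186 to 433 CPM against 94.7 to 165 CPM. Drd1 levels ranged from 95.8 to 210 CPM in the striatum and from 46.1 to 108 CPM in the cortex, so that gene's ranges overlapped. Total counts per library ran from 8553800 to 9197051 at 6 mg/kg and from 8737307 to 12019651 at 0.1 mg/kg. The difference in totals did not pass (exact two-sided permutation test, p = 0.0866, n = 6 and 5). The share of counts on the 50 most abundant genes was higher at 6 mg/kg, 9.48% ± 0.317 (SD, n = 6) against 8.86% ± 0.259 (n = 5; exact two-sided permutation test, p = 0.00866), with overlapping ranges. Its part in the results was not tested.

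The libraries of the 2 doses differed in how their read counts followed the base composition of transcripts. For each library, the deviation of every gene's log2 CPM from the mean of the 11 libraries was ranked against the GC content of the gene's longest transcript. At 6 mg/kg this Spearman rho across genes was positive in 6 of 6 libraries (0.132, 0.152, 0.219, 0.268, 0.272 and 0.376). At 0.1 mg/kg it was negative in 5 of 5 (-0.227, -0.247, -0.284, -0.426 and -0.479). The difference of the means, 0.569, gave p = 0.00433 by an exact two-sided permutation test, the smallest p that the 462 divisions of 11 libraries allow. The same measure against transcript length overlapped between doses (exact permutation test, p = 0.0866). Its lowest value, -0.626, belonged to animal 54 at 6 mg/kg, whose share of counts on the nuclear noncoding RNA Malat1 was also the lowest, 0.0058%. Computed over all 21 striatal libraries, rho with GC was -0.398, -0.212, 0.243 and 0.383 in the vehicle libraries and ran from -0.558 to 0.275 at 1 mg/kg, so both signs occurred in those groups.

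**Figure D1:**
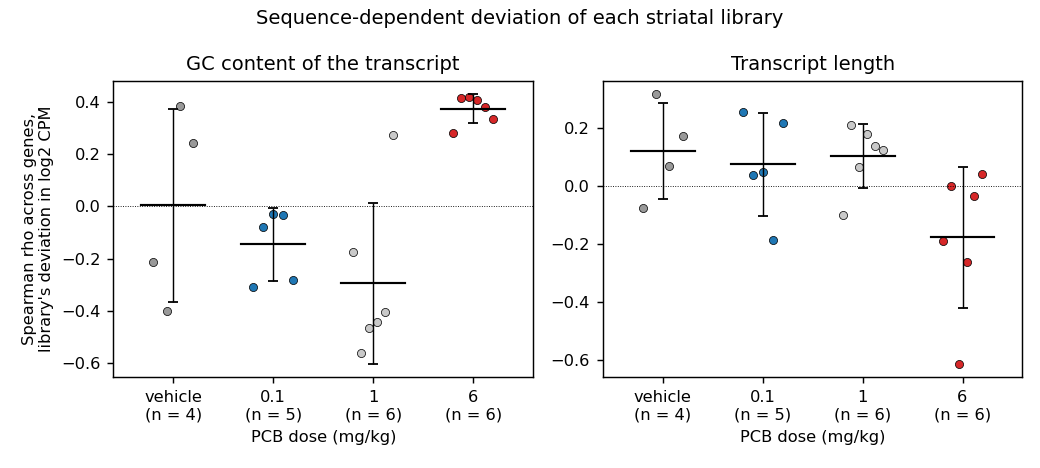
Spearman rho across genes between a library's deviation in log2 CPM and transcript GC content (left) or transcript length (right), on the y axis, for each of the 21 striatal libraries by PCB dose. Points are libraries, lines are means and bars are SD; on the left the 6 libraries at 6 mg/kg sit from 0.281 to 0.419, above the 5 at 0.1 mg/kg, which sit from -0.308 to -0.0277.

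Of 14606 genes tested, 668 (4.57%) passed an adjusted p of 0.05 in edgeR's quasi-likelihood test, 414 (2.83%) higher and 254 (1.74%) lower at 6 mg/kg. With upper quartile scaling in place of TMM the split was 643 higher and 159 lower. The calls followed GC content. Among the 3639 genes in the highest quartile of GC content (54.7% and above), 344 passed as higher and 8 as lower. Among the 3639 in the lowest quartile, 2 passed as higher and 184 as lower. Across genes, the Spearman rho of the log2 fold change with GC content was 0.585, and with transcript length it was -0.366; genes are not independent replicates. A further fit therefore carried an offset that removed from each library the part of its deviation that a smooth curve of GC content and length described. With it, the rho values were 0.0106 and -0.0199, and 87 genes (0.596%) passed, 28 higher (0.192%) and 59 lower (0.404%). In total 50 genes (0.342%) passed in both fits with the same sign, 23 higher and 27 lower. They make up 7.49% of the calls without the offset and 57.5% of the calls with it. The offset also removes any response to dose that itself runs with GC content or length, and these cannot be told apart here. Leaving out single libraries moved the counts widely. Without animal 29 at 0.1 mg/kg, 8 genes passed without the offset and 5 with it, and without animal 54 the counts were 1380 and 225. When the libraries' rho with GC content (their GC slope) entered the model as a covariate, no gene passed (edgeR, 1787 at an unadjusted p under 0.05), and 9 named genes changed sign: Mfsd11, Il17d, Ntsr2, Homer1, Htr1b, Gabra2, Dbp, Etv5 and Lrfn4. That covariate did not overlap between the doses, so this fit can hardly tell it from dose. Its lost calls and changed signs therefore do not decide about single genes.

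**Figure D2:**
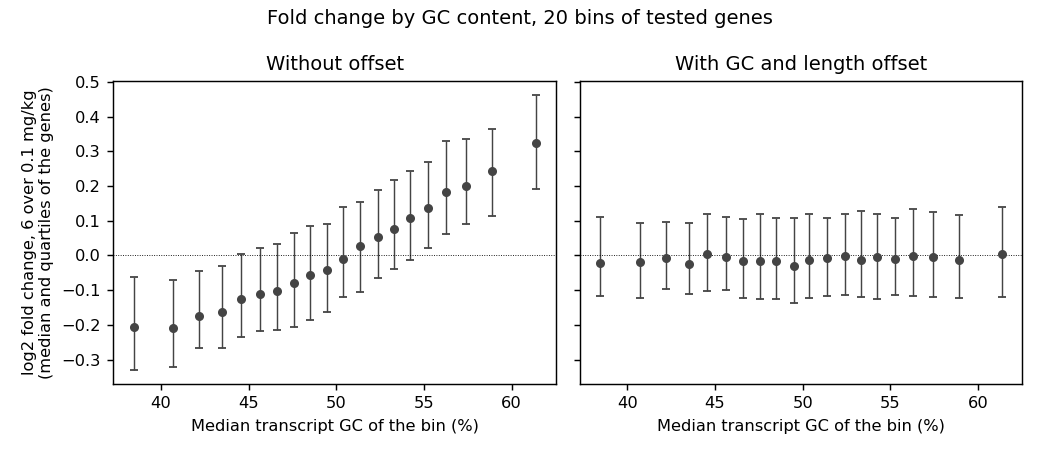
Log2 fold change of 6 over 0.1 mg/kg (y axis) against the median transcript GC content in percent (x axis) of 20 bins of tested genes, without the offset (left) and with it (right). Points are medians and bars span the quartiles of the genes in a bin; the left medians climb with GC content, where rho across genes was 0.585, and the right medians stay near 0, where it was 0.0106.

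The 8 genes that passed as lower in the highest GC quartile, against the direction of the other 344 calls there, are named here. They were the immediate early genes Egr1, Nr4a1, Arc and Fosb, the MAPK phosphatase Dusp4, the stress-inducible 70 kDa heat shock proteins Hspa1a and Hspa1b, and the metallothionein Mt2. Each also passed with the offset. In this quartile the offset lowers fold changes, with a median of 0.216 without and -0.005 with it. Passing again is therefore no separate check for genes picked as lower here.

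Of 25 immediate early genes, all tested, 10 passed as lower at 6 mg/kg and none as higher, beside 1.74% of all tested genes lower. With all 4 doses in a single fit, 3 of the 25 passed. With the offset 9 passed as lower, beside 0.404% of all, and 7 passed in both fits: Egr1, Egr2, Nr4a1, Arc, Fosb, Fosl2 and Dusp6. The median log2 fold change of the list was -0.43 without and -0.48 with the offset, against 0.00 and -0.01 over all tested genes. The sign was negative for 23 of 25 without and 25 of 25 with it, against 49.4% and 52.5% of all genes. The list's median GC content lay above that of all tested genes, in the range where the offset lowers fold changes. Junb (62.6% GC) and Egr4 (68.2% GC) passed only with the offset. The list's lower values with the offset are therefore no separate check against GC bias. In 7 of the 25 every 6 mg/kg library lay below every 0.1 mg/kg library, as in 3.12% of all tested genes. Over both directions, 7.22% of all tested genes had groups that did not overlap.

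Egr1, a zinc finger transcription factor induced by synaptic activity, was measured at 187 to 277 CPM at 6 mg/kg with a median of 235, and at 453, 441, 331, 316 and 441 CPM at 0.1 mg/kg. The groups did not overlap. Its level fell by 42.01% (log2 fold change -0.79 ± 0.13 SE, adjusted p = 0.0155), and by 48.3% with the offset (-0.95 ± 0.13, adjusted p = 0.0142). The vehicle libraries held 295 to 499 CPM and the 1 mg/kg libraries 162 to 489, so the low-dose level lay inside the vehicle range and the high-dose level below it. Egr2, a relative of Egr1, was measured at 4.82 to 12.05 CPM with a median of 7.79 at 6 mg/kg, and at 20.04, 18.3, 19.9, 17.1 and 20.9 CPM at 0.1 mg/kg. Here too there was no overlap (log2 fold change -1.23 ± 0.20, adjusted p = 0.0155, and with the offset -1.31 ± 0.20, adjusted p = 0.0142). At 6 mg/kg Egr2 and Fosl2 also lay below their vehicle ranges. Arc, Nr4a1, Dusp6 and Dusp4 at 6 mg/kg overlapped theirs, with 84.3 to 157 CPM for Arc against 116 to 261 CPM in vehicle.

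Arc, which encodes a protein of the postsynaptic density that takes part in removing AMPA receptors, was measured at 84.3 to 157 CPM with a median of 103 at 6 mg/kg. At 0.1 mg/kg its levels were 217, 216, 177, 167 and 187 CPM. The highest 6 mg/kg library, animal 54, stayed below the lowest of these. The log2 fold change was -0.79 ± 0.15 (adjusted p = 0.0178) and -1.07 ± 0.13 with the offset (adjusted p = 0.00622), where the call was kept in 11 of 11 fits that left out 1 library. Of the AP-1 members, Fosl2 was measured at 14.9 to 33.9 CPM with a median of 29.5 at 6 mg/kg and at 51.9, 48.8, 64.8, 56.7 and 82.2 CPM at 0.1 mg/kg. The groups did not overlap, with log2 fold changes of -1.23 ± 0.21 (adjusted p = 0.0168) and, with the offset, -1.20 ± 0.23 (adjusted p = 0.044). With the offset Fosl2 passed in 2 of 11 fits that left out 1 library. Fosb, whose truncated product is known to build up in striatal neurons on repeated stimulation, fell by 0.75 on the log2 scale (adjusted p = 0.028; with the offset -0.93, adjusted p = 0.0266), and passed in 5 of 11 fits that left out 1 library, with and without the offset. Fos itself passed without the offset (-0.88 ± 0.22, adjusted p = 0.0396) and just missed with it (-0.99 ± 0.21, adjusted p = 0.0549).

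The orphan nuclear receptors Nr4a1 and Nr4a3 were lower at 6 mg/kg. Nr4a1 (chr15:101253902-101274795, GRCm38.p6) was measured at 54.2 to 108 CPM with a median of 74.4 at 6 mg/kg, and at 130, 148, 143, 145 and 202 CPM at 0.1 mg/kg, without overlap. The log2 fold change was -0.97 ± 0.18 (adjusted p = 0.0178), and -1.22 ± 0.18 with the offset (adjusted p = 0.0204). Nr4a3 fell by 1.29 on the log2 scale (adjusted p = 0.0168) and reached -1.17 with the offset (adjusted p = 0.0506). Nr4a2 did not pass, with 6.25 to 9.10 CPM at 6 mg/kg and 6.01 to 11.9 CPM at 0.1 mg/kg.

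The promoter of Nr4a1 is printed because it holds several copies of the core of the cyclic AMP response element, the site of the activity-dependent factor CREB. It covers chr15:101266596-101266895 on the plus strand, from RefSeq on GRCm38.p6, 250 bases before to 50 after an annotated start, with the 4 matches to TGACG on either strand in capitals.
Nr4a1: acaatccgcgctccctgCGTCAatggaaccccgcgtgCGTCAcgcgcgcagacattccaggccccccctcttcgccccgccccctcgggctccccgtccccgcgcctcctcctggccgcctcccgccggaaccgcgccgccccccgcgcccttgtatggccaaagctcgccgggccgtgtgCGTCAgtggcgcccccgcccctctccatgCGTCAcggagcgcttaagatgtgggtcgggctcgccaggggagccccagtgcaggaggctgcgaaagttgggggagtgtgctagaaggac
A promoter window with TGACG on either strand was found for 16 of the 20 immediate early genes with a window in that table (80.0%), against 34.2% of the 11570 tested genes with a window. Over all 32851 windows of this length the share was 20.8%. A match is a run of letters and not a measured binding site.

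**Figure D3:**
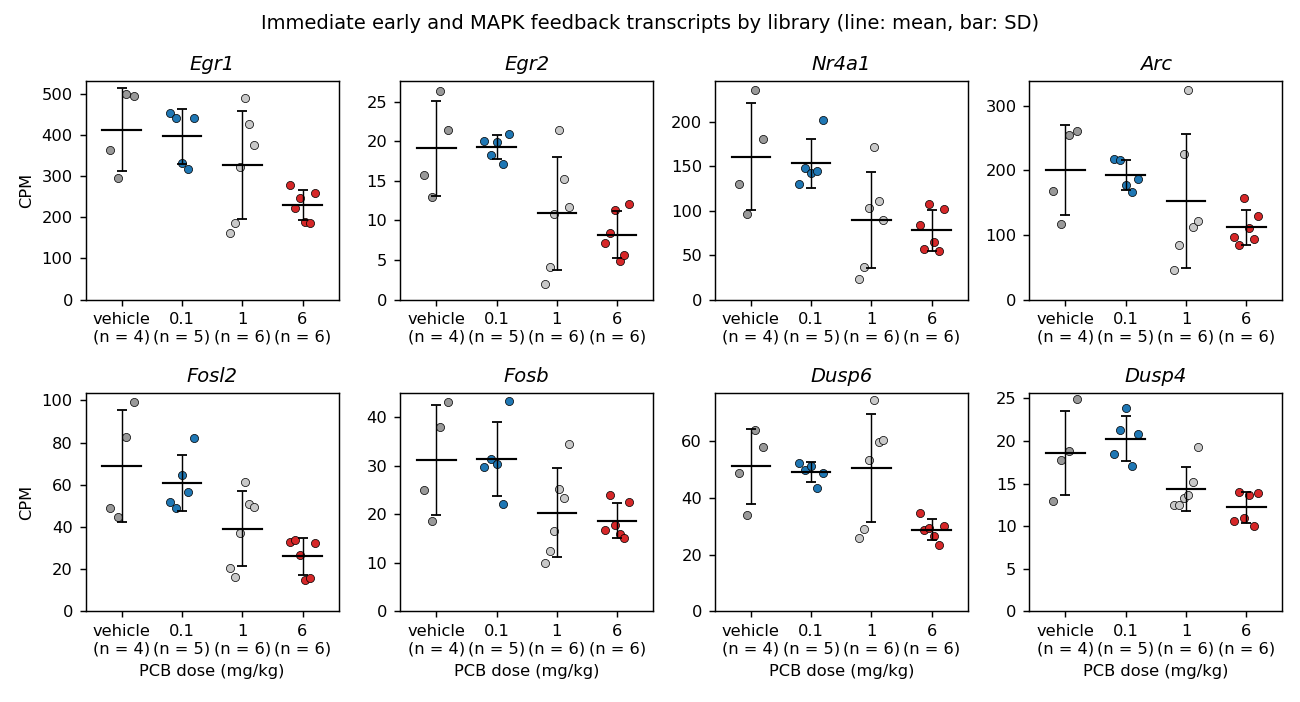
CPM (y axis, from 0) of 8 immediate early and MAPK feedback transcripts in each of the 21 striatal libraries, by PCB dose in mg/kg. Points are libraries, lines are means and bars are SD; the 6 libraries at 6 mg/kg lie below the 5 at 0.1 mg/kg in 7 panels and overlap them in the Fosb panel, and the 1 mg/kg libraries spread widely, for example from 162 to 489 CPM for Egr1.

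Of 16 feedback regulators of the MAPK cascade, 13 had a negative log2 fold change in each fit. Over all tested genes 49.4% were negative without and 52.5% with the offset. Of the 16, 4 passed as lower and 1 as higher, beside 1.74% and 2.83% of all genes. With the offset 4 passed, all lower, beside 0.404% of all. The list shares Dusp1 and Dusp6 with the immediate early genes. Dusp6 (chr10:99263231-99267489), a cytosolic phosphatase specific for ERK, was measured at 23.6 to 34.8 CPM with a median of 29.1 at 6 mg/kg and at 52.2, 49.8, 51.4, 43.6 and 48.8 CPM at 0.1 mg/kg. The groups stood well apart. The log2 fold change was -0.77 ± 0.10 (adjusted p = 0.00363), and -0.79 ± 0.09 with the offset (adjusted p = 0.00183). Dusp6 passed in 11 of 11 fits that left out 1 library, with and without the offset. Dusp4, its nuclear counterpart, was measured at 10.05 to 14.0 CPM with a median of 12.3, against 18.4, 21.3, 23.8, 17.1 and 20.8 CPM, without overlap (log2 fold change -0.73 ± 0.13, adjusted p = 0.0168; with the offset -0.94 ± 0.13, adjusted p = 0.00622). Etv5, an ETS transcription factor whose RNA follows ERK activity, fell by 0.53 (adjusted p = 0.0261) and by 0.57 with the offset (adjusted p = 0.0274) on the log2 scale. Leaving out 1 library, it passed in 6 of 11 fits without the offset and 4 with it, and with the GC slope of the libraries as a covariate its value was 0.15. Its relative Etv4 passed as higher without the offset (0.76, adjusted p = 0.0338) and did not pass with it (0.48, adjusted p = 0.221). Spred1, an inhibitor of Ras signalling, passed as lower only without the offset (-0.41, adjusted p = 0.0382; with it -0.17, adjusted p = 0.199). Dusp5, a nuclear phosphatase, passed only with it (-0.66, adjusted p = 0.0452), and there in 2 of 11 fits that left out 1 library.

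Transcripts of the heat shock response, a list of chaperones with their factor Hsf1, were lower at 6 mg/kg for 9 of 19 tested genes without the offset, and none passed as higher. The share of all tested genes that passed as lower was 1.74%. With the offset 3 passed, all lower, beside 0.404% of all, and 2 passed in both fits, beside 0.342%. The median log2 fold change was -0.32 without and -0.23 with the offset, and 17 of 19 were negative in each fit, beside 49.4% and 52.5% of all genes. In 9 of 19 every 6 mg/kg library was below every 0.1 mg/kg library, as in 3.12% of all. The summed level of the list was 5604 to 6501 CPM at 6 mg/kg and 6629 to 7654 CPM at 0.1 mg/kg, with the vehicle libraries from 6217 to 6751 CPM. The vehicle sums thus reached into the range of both doses.

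The inducible pair Hspa1a (chr17:34969359-34972156) and Hspa1b (chr17:34956429-34959238) gave the largest changes of the list. These genes are nearly identical copies, so the split of reads between them is uncertain. Hspa1b was measured at 9.82 to 19.1 CPM with a median of 14.5 at 6 mg/kg and at 20.04, 21.0, 39.0, 52.8 and 28.003 CPM at 0.1 mg/kg. Animals 25 and 28 carried the highest values. The log2 fold change was -1.099 ± 0.241 (adjusted p = 0.03), and -1.36 ± 0.23 with the offset (adjusted p = 0.0274). Hspa1a gave -0.84 ± 0.20 (adjusted p = 0.0338) and -1.11 ± 0.18 (adjusted p = 0.0204). The vehicle means were 20.4 CPM for Hspa1b and 22.9 CPM for Hspa1a. With the offset, Hspa1b passed in 6 of 11 fits that left out 1 library. Dnajb1, a cochaperone of the same machinery, passed with the offset only (-0.49 ± 0.10, adjusted p = 0.0386; without it -0.39, adjusted p = 0.062), and there in 3 of 11 fits that left out 1 library.

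The other chaperones that passed without the offset have transcripts of lower GC content, and none of them passed with it. They were Hspa4l, Chordc1, Hsph1, Hspa4, Dnajb4, Hsp90aa1 and Dnaja1. Hsph1, a nucleotide exchange factor of the 70 kDa class, was measured at 259 to 325 CPM with a median of 277 at 6 mg/kg, and at 341, 334, 442, 389 and 455 CPM at 0.1 mg/kg. The groups did not overlap (log2 fold change -0.47 ± 0.10, adjusted p = 0.0261; with the offset -0.37 ± 0.09, adjusted p = 0.0853). Hspa4l, of the same class, moved from -0.50 (adjusted p = 0.017) to -0.19 with the offset (adjusted p = 0.247), and its transcript has 39.5% GC. Chordc1, a cochaperone of HSP90 with 35.7% GC, moved from -0.48 (adjusted p = 0.0225) to -0.22 (adjusted p = 0.307).

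The Chordc1 promoter is shown because it holds 3 overlapping matches, in capitals, to the heat shock element, spelled GAANNTTCNNGAA and searched on both strands. It covers chr9:18292017-18292316 on the plus strand (RefSeq, GRCm38.p6).
Chordc1: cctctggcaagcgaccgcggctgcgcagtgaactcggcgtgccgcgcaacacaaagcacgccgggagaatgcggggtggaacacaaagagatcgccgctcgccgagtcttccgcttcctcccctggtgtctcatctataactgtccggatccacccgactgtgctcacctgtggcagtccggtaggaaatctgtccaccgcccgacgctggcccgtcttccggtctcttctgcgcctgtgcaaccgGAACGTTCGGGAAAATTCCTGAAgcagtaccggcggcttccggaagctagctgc
Of the 14 chaperone genes with a promoter window, 4 (28.6%) held the element, namely Chordc1, Hsph1, Hspd1 and Hspe1, against 0.57% of tested genes with a window and 0.603% of all windows. Hspd1 and Hspe1, the mitochondrial chaperonin pair, did not pass in either fit (log2 fold changes -0.27 and -0.16 without the offset).

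Of 22 genes of the ER stress response, a list of chaperones, folding enzymes and transcription factors, 4 passed as lower at 6 mg/kg without the offset and 2 with it, and none as higher. Over all tested genes 1.74% and 0.404% passed as lower. The sign was negative for 20 of 22 in each fit, beside 49.4% and 52.5% of all genes, with medians of -0.26 and -0.21. With all 4 doses in a single fit 2 of the 22 passed, and with DESeq2 9. Hspa5 (BiP, chr2:34772090-34776529), the ER chaperone that also senses unfolded protein, was measured at 274 to 337 CPM with a median of 302 at 6 mg/kg, and at 368, 369, 468, 494 and 478 CPM at 0.1 mg/kg. The groups did not overlap, with a log2 fold change of -0.53 ± 0.10 (adjusted p = 0.0178) and -0.45 ± 0.09 with the offset (adjusted p = 0.044). The vehicle libraries held 271 to 336 CPM and the 1 mg/kg libraries 251 to 342 CPM, close to the 6 mg/kg range and under every 0.1 mg/kg library. Without the offset Hspa5 passed in 10 of 11 fits that left out 1 library, and with it in 1 of 11. Xbp1, a transcription factor of the unfolded protein response, passed with the offset only (-0.36 ± 0.06, adjusted p = 0.0257; without it -0.23, adjusted p = 0.115). The disulfide isomerase Pdia4 passed without the offset (-0.43, adjusted p = 0.0424) and reached -0.43 with it (adjusted p = 0.0615). Dnajc3 and Hspa13 passed only without it. The summed level of the list was 2460 to 2655 CPM at 6 mg/kg, 2826 to 3354 CPM at 0.1 mg/kg and 2479 to 2675 CPM in vehicle. The 0.1 mg/kg libraries stood above those of both groups and overlapped the 1 mg/kg libraries, which ran from 2302 to 2942 CPM. No test against vehicle was made.

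The Hspa5 promoter is printed because it carries the ER stress element, spelled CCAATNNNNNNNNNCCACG and searched on both strands, here once and in capitals. It covers chr2:34771840-34772139 on the plus strand (RefSeq, GRCm38.p6).
Hspa5: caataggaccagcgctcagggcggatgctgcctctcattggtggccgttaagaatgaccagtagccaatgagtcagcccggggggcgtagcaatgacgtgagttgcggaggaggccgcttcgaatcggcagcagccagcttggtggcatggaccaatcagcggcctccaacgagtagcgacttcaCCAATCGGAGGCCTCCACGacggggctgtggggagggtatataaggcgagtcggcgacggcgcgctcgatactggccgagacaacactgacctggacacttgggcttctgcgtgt
The element was found for 7 of the 18 listed ER genes with a window (38.9%), namely Hspa5, Hsp90b1, Calr, Canx, Pdia6, Dnajc3 and Creld2, against 0.164% of tested genes with a window and 0.119% of all windows. Of these, Hspa5 and Dnajc3 passed without the offset and Hspa5 with it.

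**Figure D4:**
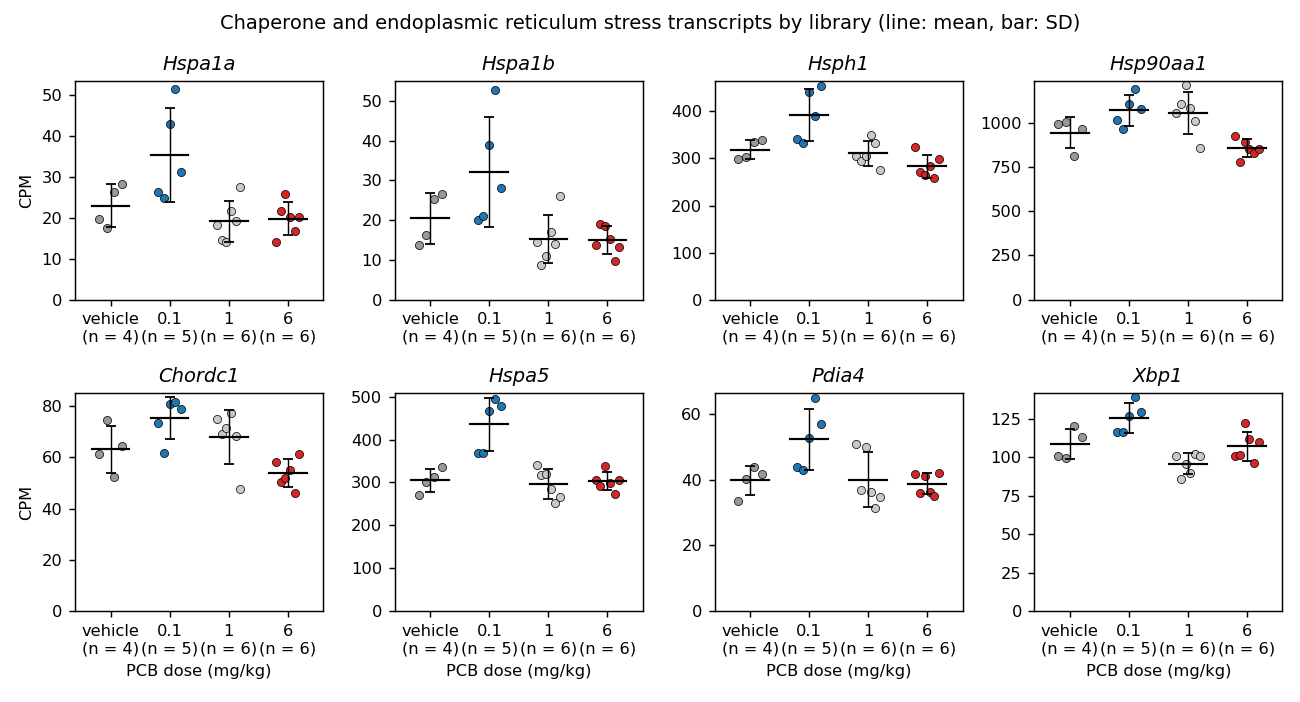
CPM (y axis, from 0) of 5 heat shock and 3 ER stress transcripts in each of the 21 striatal libraries, by PCB dose in mg/kg. Points are libraries, lines are means and bars are SD; Hspa5 sits from 274 to 337 CPM at 6 mg/kg and from 368 to 494 CPM at 0.1 mg/kg, with the vehicle libraries from 271 to 336 CPM.

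The counts of these 4 lists moved with the libraries included. Without animal 29 the calls were 1 of 25 immediate early genes, 0 chaperones, 0 ER genes and 1 feedback regulator, and with the offset 2, 0, 0 and 2. Other libraries mattered as well. With the offset, no chaperone passed without animal 25 or 56, no ER gene without animal 23, 25 or 56, and 2 feedback regulators without any single one of animals 23, 24, 25, 53, 56 and 58. Without the offset, 1 chaperone passed without animal 23 or 25 and 2 without animal 55 or 56, and 1 ER gene passed without animal 23, 25, 28, 55 or 56. Without animal 54 they were 13, 14, 9 and 6, and with the offset 11, 7, 5 and 5. Markers of cells from neighbouring tissue are given beside them. The summed level of 14 cortical excitatory neuron markers was 2584 to 3516 CPM at 6 mg/kg and 1994 to 3278 CPM at 0.1 mg/kg, and none of the 14 passed in either fit. The sum over 12 choroid plexus and ependymal markers was 78.7 to 2704 CPM and 70.1 to 1288 CPM. Of these, 10 were tested, again with no gene passing. Oligodendrocyte markers, described further below, summed to 8051 to 11100 CPM at 6 mg/kg and 5750 to 8729 CPM at 0.1 mg/kg. The part of tissue makeup in the results was not tested.

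**Figure D5:**
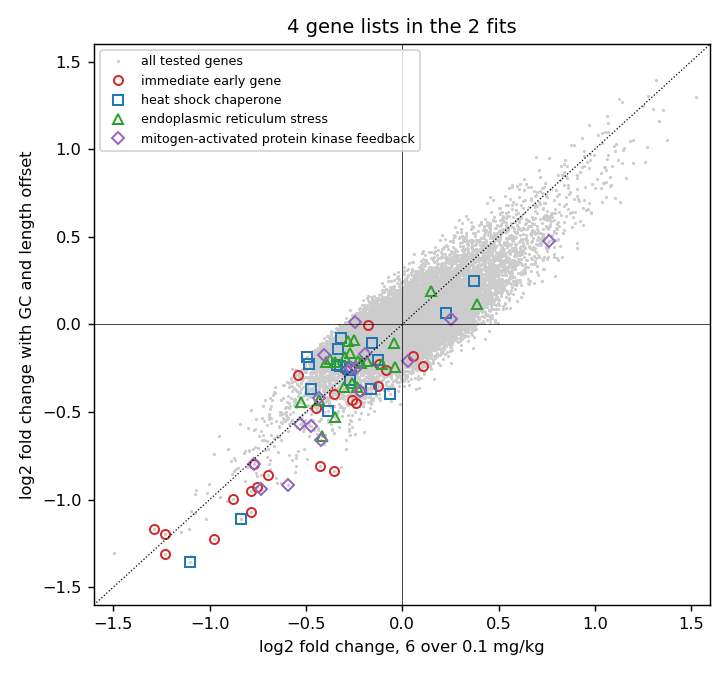
Log2 fold change of 6 over 0.1 mg/kg without the offset (x axis) and with it (y axis) for the 14606 tested genes (grey points), with 4 gene lists marked by colour and shape and the line of equal values dotted. All 25 immediate early genes have a negative value with the offset, and 23 of them without it.

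Among single genes that passed in both fits without overlap, those with the smallest p-values on the higher side were Lmtk3, Slc27a1, Sox12, Zfp575, Dtx3, Srsf5, Thap3, Mfsd11, Eln and Col15a1. Srsf5, a serine- and arginine-rich splicing factor, was measured at 149 to 210 CPM with a median of 172 at 6 mg/kg, and at 126, 116, 124, 113 and 115 CPM at 0.1 mg/kg. Its transcript has 40.1% GC, where the offset raises fold changes (bin of tested genes around 40.7% GC, median -0.21 without and -0.02 with it). Its log2 fold change was larger with the offset (0.68 ± 0.08, adjusted p = 0.00175) than without (0.55 ± 0.09, adjusted p = 0.0154), and with it the call was kept in 11 of 11 fits that left out 1 library. The 1 mg/kg libraries held 154 to 199 CPM and the vehicle libraries 124 to 138 CPM. Of 26 tested splicing factors of its kind 3 passed, beside 4.57% of all genes, and 2 with the offset, beside 0.596%. The others that passed were Srsf10 and Tra2b, both lower. Srsf10 passed with the offset (-0.35, adjusted p = 0.0386), though in 2 of 11 fits that left out 1 library, and Tra2b did not pass (-0.21, adjusted p = 0.264).

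Lmtk3, a membrane kinase of neurons with 66.7% transcript GC, was measured at 439 to 538 CPM with a median of 458 at 6 mg/kg and at 286, 306, 304, 286 and 267 CPM at 0.1 mg/kg. Its log2 fold change went from 0.70 ± 0.08 (adjusted p = 0.00363) to 0.38 ± 0.07 with the offset (adjusted p = 0.0322). In vehicle it held 302 and 273 CPM in the libraries with negative GC rho (-0.212 and -0.398) and 492 and 446 CPM in those with positive rho (0.383 and 0.243). The vehicle libraries with positive rho were also the higher ones for Slc27a1, Sox12, Zfp575, Dtx3, Thap3, Mfsd11, Eln and Col1a1. For Sox12 they held 31.3 and 26.6 CPM against 21.3 and 16.8 CPM. This did not hold for Srsf5 or Col15a1. These CPM carry no offset, and the part of GC bias in the calls of single genes was not tested. Slc27a1, a fatty acid transporter, rose by 0.57 (adjusted p = 0.00363) and 0.35 (adjusted p = 0.0266) on the log2 scale. The transcription factor Sox12 rose by 0.73 and 0.50 (adjusted p = 0.00363 and 0.0231). With the offset, Lmtk3 passed in 5, Slc27a1 in 4 and Sox12 in 6 of 11 fits that left out 1 library. Zfp575 rose by 1.04 and, with the offset, 0.81 (adjusted p = 0.00518 and 0.0204), and Thap3 by 0.76 and 0.47 (adjusted p = 0.0154 and 0.0393) on the log2 scale. Dtx3 rose by 0.62 and 0.34 (adjusted p = 0.0154 and 0.0334), and Mfsd11 by 0.52 in each fit (adjusted p = 0.0155 and 0.0204). With the offset Zfp575 and Mfsd11 passed in 7, Dtx3 in 4 and Thap3 in 2 of those 11 fits, and the value of Mfsd11 was -0.014 with the GC slope as a covariate. Col15a1, a collagen, was measured at 6.07 to 11.9 CPM with a median of 8.84 against 4.96, 3.55, 4.07, 4.46 and 3.15 CPM (log2 fold change 1.103, adjusted p = 0.0168; with the offset 0.99, adjusted p = 0.0274). Eln, elastin, gave 1.05 and 0.81 (adjusted p = 0.0168 and 0.044), and Col1a1 gave 0.77 and 0.62 (adjusted p = 0.0207 and 0.04). With the offset these 3 passed in 4, 4 and 2 of 11 fits that left out 1 library.

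On the lower side, among genes that passed in both fits without overlap, the 10 smallest p-values belonged to Dusp6, Top1, Srsf10, Egr2, Tiparp, Egr1, P4ha1, Fosl2, Dusp4 and Cep120. Top1, DNA topoisomerase I, was measured at 53.7 to 71.6 CPM with a median of 61.1 at 6 mg/kg and at 88.9, 85.2, 87.3, 84.5 and 100 CPM at 0.1 mg/kg. The groups did not overlap, with log2 fold changes of -0.54 (adjusted p = 0.0154) and -0.41 with the offset (adjusted p = 0.0217). Tiparp, an ADP-ribosyltransferase that is a target of the aryl hydrocarbon receptor, was measured at 12.5 to 16.8 CPM with a median of 14.5 against 22.5, 25.7, 21.8, 20.6 and 27.6 CPM. It fell by 0.69 (adjusted p = 0.0155) and by 0.52 with the offset (adjusted p = 0.0381) on the log2 scale, and with the offset passed in 3 of 11 fits that left out 1 library. P4ha1, a collagen prolyl hydroxylase, fell by 0.60 and 0.50 (adjusted p = 0.0168 and 0.0483), and Cep120, a centrosomal protein, by 0.40 and 0.31 (adjusted p = 0.0168 and 0.0452) on the log2 scale, each passing with the offset in 1 of those 11 fits. Of 22 tested genes of the xenobiotic and aryl hydrocarbon receptor list Tiparp alone passed in each fit, where 4.57% of all tested genes passed without the offset and 0.596% with it. Ahr itself (7.04 ± 1.29 CPM, SD, n = 6, and 7.27 ± 1.88 CPM, n = 5) and the receptor's classical target Cyp1b1 (-0.39, adjusted p = 0.344) did not pass.

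Genes of dopamine, calcium and transmitter signalling are read beside the 4.57% of all genes that passed without the offset and 0.596% with it. None of 28 striatal projection neuron genes passed in either fit. Drd1 was measured at 95.8 to 168 CPM at 6 mg/kg and at 165, 186, 124, 110 and 210 CPM at 0.1 mg/kg (log2 fold change -0.26 ± 0.17, adjusted p = 0.36). Drd2 (0.24, adjusted p = 0.429), Adora2a (0.37, adjusted p = 0.176) and the enkephalin precursor Penk (0.04, adjusted p = 0.912) overlapped between doses as well. Of 28 tested genes of ryanodine receptors and calcium stores, Creb1 and Homer1 passed as lower and Atp2a3, a calcium pump, as higher, and none passed with the offset. Ryr1 gave 0.36 ± 0.15 (adjusted p = 0.149). Htr1b, a serotonin receptor, was the only one of 16 monoamine genes to pass (-0.60, adjusted p = 0.0495; with the offset -0.47, adjusted p = 0.148). Of 14 GABA receptor genes Gabra2 passed (-0.44, adjusted p = 0.0354), and of 30 glutamate receptor and scaffold genes Grik5 (higher) and Homer1 (lower) passed, in each case not with the offset. Among 20 thyroid hormone genes Dio2, which activates the hormone, passed as lower (-0.80, adjusted p = 0.0261; with the offset -0.59, adjusted p = 0.105), and Thra did not pass.

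Of 18 clock genes Dbp and Bhlhe41 passed as higher, beside 2.83% of all genes, and Bhlhe41, a repressor of the clock, also with the offset (0.45, adjusted p = 0.0352). The list's median log2 fold change was -0.19 without and -0.12 with the offset. Of the 18, 11 and 12 were negative, beside 49.4% and 52.5% of all genes. Bhlhe41 passed in 2 of 11 fits that left out 1 library, and in 3 with the offset. Of 15 glucocorticoid response genes Tsc22d3 and Mt2 passed as lower, beside 1.74% of all genes, and Mt2 also with the offset (-0.59, adjusted p = 0.0217). Mt2 passed in 1 of those 11 fits, and in 8 with the offset. The median log2 fold change of the glucocorticoid list was -0.38 without and -0.45 with the offset, and 13 and 14 of 15 were negative, beside 49.4% and 52.5% of all genes. Tsc22d3 gave -0.53 in each fit (adjusted p = 0.0354, and 0.0533 with the offset). Dbp went from 0.54 (adjusted p = 0.0338) to 0.19 with the offset (adjusted p = 0.299).

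The oligodendrocyte regulator Sox10 and the myelin gene Mbp passed as higher among 17 oligodendrocyte genes (log2 fold changes 0.48 and 0.50, adjusted p = 0.03 and 0.0338), beside 2.83% of all genes higher, and the summed level of that list was 8051 to 11100 CPM at 6 mg/kg and 5750 to 8729 CPM at 0.1 mg/kg. With the offset none passed, although none of the 17 was negative, beside 52.5% of all genes, and Mbp stayed at 0.53 (adjusted p = 0.0861). Of 16 astrocyte genes Aldh1l1 and Ntsr2 passed as higher without the offset and none with it. The pericyte receptor Pdgfrb gave 0.47 without (adjusted p = 0.0423) and 0.40 with the offset (adjusted p = 0.0837). The nuclear RNA Neat1 gave 0.70 (adjusted p = 0.0403) and, with the offset, a larger value with a larger error, 0.96 ± 0.31 (adjusted p = 0.189). It was the only one of 11 tested nuclear-retained noncoding RNAs to pass. The list's median was 0.36 without and 0.49 with the offset, and 4 and 1 of the 11 were negative, beside 49.4% and 52.5% of all genes. Of the 16 astrocyte genes 8 were negative without the offset and 9 with it, and their summed level overlapped between doses, 6090 to 7928 CPM at 6 mg/kg and 7056 to 7879 CPM at 0.1 mg/kg. No microglial gene of 16, interneuron gene of 13 or cholesterol synthesis gene of 20 passed in either fit. The same held for 18 interferon response genes and 3 red blood cell genes. Over all tested genes 4.57% passed without the offset and 0.596% with it, and at those shares lists this short can hold no call. Of 71 respiratory chain subunits and 15 DNA methylation genes none passed without the offset, and 1 of each list passed with it, as lower. With the offset 0.404% of all tested genes passed as lower. On sign, 48 of the 71 and 13 of the 15 were negative with it, beside 52.5% of all genes. In punches, more cells of a type and more RNA per cell cannot be told apart.

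In the prefrontal cortex the same doses, 6 and 5 libraries, gave 0 passing genes of 14351 (0%, 6 against 0.1 mg/kg) by edgeR without the offset, with 1189 at an unadjusted p under 0.05. DESeq2 called 65 there. With the offset 12 genes (0.0836%) passed in the cortex, all lower. They included Hspa1b (-0.74, adjusted p = 0.00684), Hspa1a (-0.66, adjusted p = 0.00415), Hspa5 (-0.62, adjusted p = 0.0301), Pdia4 (-0.62, adjusted p = 0.0485) and Homer1 (-0.47, adjusted p = 0.0301). Of these, Hspa1a, Hspa1b and Hspa5 also passed with the offset in the striatum. The median log2 fold change of the immediate early genes was -0.70 in the cortex, and Egr1 gave -0.48 (adjusted p = 0.408), Arc -1.26 (adjusted p = 0.178) and Nr4a1 -0.80 (adjusted p = 0.337). A test of the difference between the tissues, in a single fit over both, called 150 of 14963 genes (1.00%), 130 with a higher and 20 with a lower fold change in the striatum. With the offset it called 1 gene (0.00668%). The same numbers stand in the titles of both tissues. With the number as a block the test called 362 genes (2.42%), and with block and offset 5 (0.0334%). None of the 25 immediate early genes was among the 150. Egr1 differed by -0.31 ± 0.21 (adjusted p = 0.404) and Dusp6 by -0.35 ± 0.20 (adjusted p = 0.298) on the log2 scale. The genes with the smallest interaction p were Lmtk3 (0.84 ± 0.13, adjusted p = 0.00961), Scaf1, a splicing-associated factor (0.65, adjusted p = 0.00961), and the synaptic adhesion gene Lrfn4 (0.84, adjusted p = 0.0107), with transcript GC of 66.7%, 63.0% and 65.6%.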

How the data were processed

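The authors deposited raw read counts per gene, 1 table per tissue. Per the submitters' processing notes, FastQC, HISAT2 and mm10 were used. The counting tool, annotation, strand setting and RNA enrichment step are not given in the sources used here. The striatal table lists 17874 genes in 21 libraries, none with a total under 10, so the authors' table was already filtered. Symbols, coordinates and promoters came from RefSeq GRCm38.p6, and GC content and length from the longest GENCODE transcript.

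Counts were tested with edgeR 4.0.16 (R 4.3.3; TMM, filterByExpr, robust quasi-likelihood, Benjamini-Hochberg adjustment, threshold 0.05). The offset came from natural splines (5 degrees of freedom) of GC content and log2 length, estimated in the same libraries. Log2 CPM used a prior count of 2, and SE is the fold change over the root of F. Alternatives used DESeq2 1.42.0, limma 3.58.1, sva 3.50.0, other scalings and filters, all 4 doses, and each library left out. Scripts were tested on simulated data. Library measures were compared by exact permutation tests in scipy 1.17.1.

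Named genes were, of those passing both fits without overlap, the 10 with the smallest p and 5 with the largest change in each direction, up to 4 passing members per list, the 3 with the smallest interaction p, and a set of striatal and PCB genes. Other list members were named after their values were seen. Values of some genes that the rule names, in lists where none passed, are not reported here. The comparison and the gene lists were chosen with earlier results of these data known. No replicate pair agreed within sampling noise (smallest chi-square per degree of freedom 2.94, 25 pairs).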

Additional observations from a re-analysis of the deposited data

Results flagged for a closer look

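Of 176 sets of values (a named gene or a library measure in 1 dose group), 16 had a library standing apart from its group by Dixon's criterion, and 8.8 would be expected at 1 in 20. Animal 54 at 6 mg/kg was the library in 8 of them, with Tra2b at 68.7 CPM, Grik5 at 529.6, Cox6a1 at 676.97, Cyc1 at 273.02, Hspa4l at 114.6, Mbd3 at 237.2, Lrfn4 at 104.5 and Thra at 1049.97 CPM. Its rho with transcript length, -0.626, was also the lowest of the 11 libraries, and the part of that in these values was not tested. Animal 29 at 0.1 mg/kg stood apart for Top1 (100.351 CPM) and Nr4a1 (201.723 CPM). Animal 28 did so for the ependymal gene Tmem212 (6.31 CPM) and the choroid plexus water channel Aqp1 (7.83 CPM), and animal 52 at 6 mg/kg for Aqp1 (19.1 CPM) and Homer1 (215.6 CPM). Creb1 stood apart in animal 24 (44.0 CPM) and Tsc22d3 in animal 53 (89.4 CPM).

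The fold change differed between striatum and prefrontal cortex, by the interaction term of edgeR at an adjusted p under 0.05, for 10 of 82 named genes, and for 16 with the number in the titles as a block. The difference in log2 fold change, striatum minus cortex, was 0.84 for Lmtk3, 0.51 for Slc27a1, 0.71 for Sox12, 0.65 for Dtx3, 0.62 for Mfsd11, 1.04 for Il17d, 0.62 for Grik5, -0.69 for Hspa4l, 0.65 for Scaf1 and 0.84 for Lrfn4. With the GC and length offset, 1 gene of all tested passed this term.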

How the results depend on the processing

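The 668 calls between doses became 1544 with DESeq2, 1543 with 1 surrogate variable, 440 with all 4 doses in the fit, 87 with the GC and length offset, 43 with both of these, 23 with a GC offset alone, and 0 with each library's GC slope as a covariate (edgeR, 1787 at an unadjusted p under 0.05). Leaving out 1 library gave 8 (without animal 29) to 1380 (without animal 54), and 5 to 225 for the 87 calls with the offset, which became 43 with all 4 doses. The GC slope as covariate reversed Mfsd11 (-0.014), Il17d (-0.0647), Ntsr2 (-0.061), Homer1 (0.60), Htr1b (0.80), Gabra2 (0.064), Dbp (-0.15), Etv5 (0.15) and Lrfn4 (-0.095). That covariate did not overlap between the doses, so this fit can hardly tell it from dose. The cause was not tested. In the prefrontal cortex 12 genes passed with the offset and 65 with DESeq2, and 0 to 19 without 1 library. The 150 interaction calls became 1 with the offset, 796 with DESeq2, and 0 to 805 without 1 animal. With the replicate block on the animal number they were 362, and 5 with block and offset. Same-numbered libraries of the tissues correlated above 0.1 in 7 of 11 pairs, and 6 of 11 correlated best with their own number (mean r 0.129, against -0.025 with other numbers). This is a hint of pairing that the labels do not state, short of every pair being above 0.1. Of 82 named genes, 16 passed the interaction with the block and 10 without. Members passing among immediate early genes were 3 with all 4 doses. Heat shock chaperones passing were 3 with the offset. Genes passing in the endoplasmic reticulum stress list were 9 with DESeq2, 2 with all 4 doses and 2 with the offset. Leaving out 1 library gave 1 to 13 immediate early genes (2 to 11 with the offset), 0 to 14 chaperones (0 to 7), 0 to 9 endoplasmic reticulum genes (0 to 5) and 1 to 6 kinase feedback genes (2 to 5). The GC slope difference of 0.569 was 0.702 over genes of at least 10 CPM. Genes with low counts limit what this depth can show.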

Other observations

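Of 79 tested transcripts of cytosolic ribosomal proteins, 0 passed without the offset and 7 passed with it, all lower, beside 0.404% of all tested genes lower with the offset: Rpl38, Rpl41, Rps18, Rpl37a, Rpl36, Rpl14 and Rpl19. The median log2 fold change was -0.07 without and -0.10 with the offset, and 62 of 79 were negative with it, beside 52.5% of all genes. These transcripts are short, with a median length of 1106 bases against 3438 over all tested genes. This group was chosen after its values were seen.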
